A study of Mus musculus with 62 samples.

Results

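Small leucine-rich proteoglycans (SLRPs) are secreted proteins of the extracellular matrix, and the 10 genes described here are Dcn (decorin), Bgn (biglycan), Aspn (asporin), Lum (lumican), Fmod (fibromodulin), Prelp (prolargin), Kera (keratocan), Omd (osteomodulin), Ogn (osteoglycin) and Chad (chondroadherin). They were taken by name from an expression table of 47643 genes in diaphragm muscles of mice with and without melanoma xenografts, and each name matched 1 row. All 10 were among the 13578 genes that reached 1 TPM (transcripts per 1000000) in 5 mice or more, which were the genes tested. TPM is corrected for transcript length, so that levels can be compared between genes, and each library sums to 1000000.

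The mice were females of 2 months that had received cachectic melanoma cells (CAC), which cause muscle wasting, non-cachectic melanoma cells (NCAC), or a mock injection (Con), and diaphragms were taken 2, 4, 6 and 8 weeks later. Each of the 12 conditions had 5 mice, except for CAC at 8 weeks, which had 7, and each of the 62 libraries came from 1 mouse. The melanomas were the patient-derived xenograft lines MAST360B (cachectic) and MAST552A (non-cachectic), placed in the flank, so each tumor type was represented by 1 line, and the mock injection was PBS. The sample labels name the strain C57BL6/J whereas the series design names NCI Ath/nude mice, and the label is the same in all 62 samples. Tendon was cut away when the muscle was taken. The 12 muscle fiber markers summed to 41159.5 to 96844 TPM in CAC and 64573 to 78709 TPM in Con at 8 weeks.

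SLRPs share a core of leucine-rich repeats, with which most of them bind collagen, and many carry chondroitin, dermatan or keratan sulfate chains. They set the diameter and spacing of collagen fibrils, and some of them, decorin and biglycan in particular, also bind transforming growth factor beta and cell surface receptors. In skeletal muscle they are made mainly by fibroblasts and fibro-adipogenic progenitors of the connective tissue layers and by tendon cells, rather than by myofibers. In whole muscle, fewer cells of a type and less RNA per cell cannot be told apart.

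The genes lie partly in clusters (GRCm38, GENCODE). Dcn (chr10:97479609-97518143), Lum (chr10:97565128-97572703) and Kera (chr10:97606879-97613692) follow each other on the plus strand of chromosome 10, with Epyc after them. Aspn (chr13:49544443-49567565), Omd (chr13:49582462-49592822) and Ogn (chr13:49608046-49624501) follow Ecm2 on the plus strand of chromosome 13. Prelp (chr1:133910304-133921414, minus strand) and Fmod (chr1:134037254-134048277, plus strand) are near each other on chromosome 1. Bgn (chrX:73483602-73495933) and Chad (chr11:94565047-94569127), both on the plus strand, lie apart from the others.

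Promoter windows from RefSeq (GRCm38.p6) were at hand for 8 of the 10 genes, all but Dcn and Lum. The windows of Aspn and Chad are shown because these members fell relative to both other groups at 8 weeks, as did Kera, which is given by its matches alone, and they cover the 250 bases before the RefSeq start on the plus strand. Capitals mark matches, on either strand, to the E-box letters CANNTG, to CCAAT and to TATAAA. The Aspn window is chr13:49544193-49544442 and the Chad window is chr11:94564797-94565046.
Aspn: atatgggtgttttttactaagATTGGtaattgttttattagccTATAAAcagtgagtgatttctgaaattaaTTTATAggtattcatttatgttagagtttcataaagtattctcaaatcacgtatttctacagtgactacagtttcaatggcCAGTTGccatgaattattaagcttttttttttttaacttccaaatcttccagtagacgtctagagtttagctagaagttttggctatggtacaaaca
Chad: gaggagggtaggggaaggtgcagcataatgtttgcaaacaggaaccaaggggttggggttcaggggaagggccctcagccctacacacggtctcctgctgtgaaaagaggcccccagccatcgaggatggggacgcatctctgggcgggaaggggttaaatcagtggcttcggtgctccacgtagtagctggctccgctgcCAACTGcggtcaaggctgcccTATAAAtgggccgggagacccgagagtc
Both windows held 1 E-box, which 66.2% of all 32851 windows of this length held at least once. TATAAA, in 12.4% of all windows, matched 2 times in Aspn and 1 time in Chad, and Ogn was the other member with a match. CCAAT, in 33.8% of all windows, matched 1 time in Aspn, 1 time in Prelp and 3 times in Kera. The Kera window held 0 E-boxes and 0 matches to TATAAA. These matches describe the letters of a window and not binding.

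Some libraries stood apart. Most member fold changes at 8 weeks and most list counts are given with and without those that listed few genes. Ranges, sums and fold changes of single list genes include them, unless stated otherwise. Of the 62, 4 listed 15069 to 16389 genes above 0 (2 of CAC and 1 of NCAC at 2 weeks, and replicate 3 of CAC at 8 weeks) and gave 54.4% to 61.5% of their TPM to mitochondrially encoded genes, whereas the other 58 listed at least 17909 genes and gave at most 50.1%. In 5 others the mean log2(TPM + 1) of 10 liver genes was above 7 (7.59 to 10.2, at most 6.82 elsewhere). They were replicates 2, 4 and 5 of Con at 2 weeks, replicate 1 of CAC at 2 weeks and replicate 5 of CAC at 6 weeks. Without these 5, limma called Fmod lower versus Con at 8 weeks (-1.21, adjusted p = 0.0326), and the other member calls of CAC at 6 and 8 weeks stayed. The median log2 fold change of all genes was off 0 by over 0.1 between CAC and Con at 2 weeks (-0.42) and 6 weeks (0.17), and between CAC and NCAC at 2 weeks (-0.20) and 6 weeks (0.14), as also between NCAC and Con at 2 weeks (-0.18). The share of changed genes that were higher in CAC than Con was 82.8% at 6 weeks and 46.6% after median-ratio scaling. At 8 weeks it was 45.04%, 20.6% when libraries were scaled without mitochondrially encoded genes, and 64.2% without the 4 libraries.

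In Con, Dcn was by far the most abundant member. Over the 20 Con mice its median was 634 TPM, above Bgn in 20 of 20 mice. Bgn (111 TPM) and Lum (108 TPM) came next and were not ordered beyond their spread, with Bgn the higher of the pair in 13 of 20 mice. A middle tier held Ogn (46.3 TPM), Fmod (39.9 TPM), Prelp (37.2 TPM) and Aspn (28.6 TPM), in which each gene was above the next in 13 to 17 of 20 mice, and Aspn above Kera in 20 of 20. Kera (9.20 TPM) and Chad (8.48 TPM) were lower and changed places between mice, with Kera above Chad in 12 of 20. Omd was the least abundant at 2.25 TPM, below Chad in 20 of 20 mice.

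**Figure D1:**
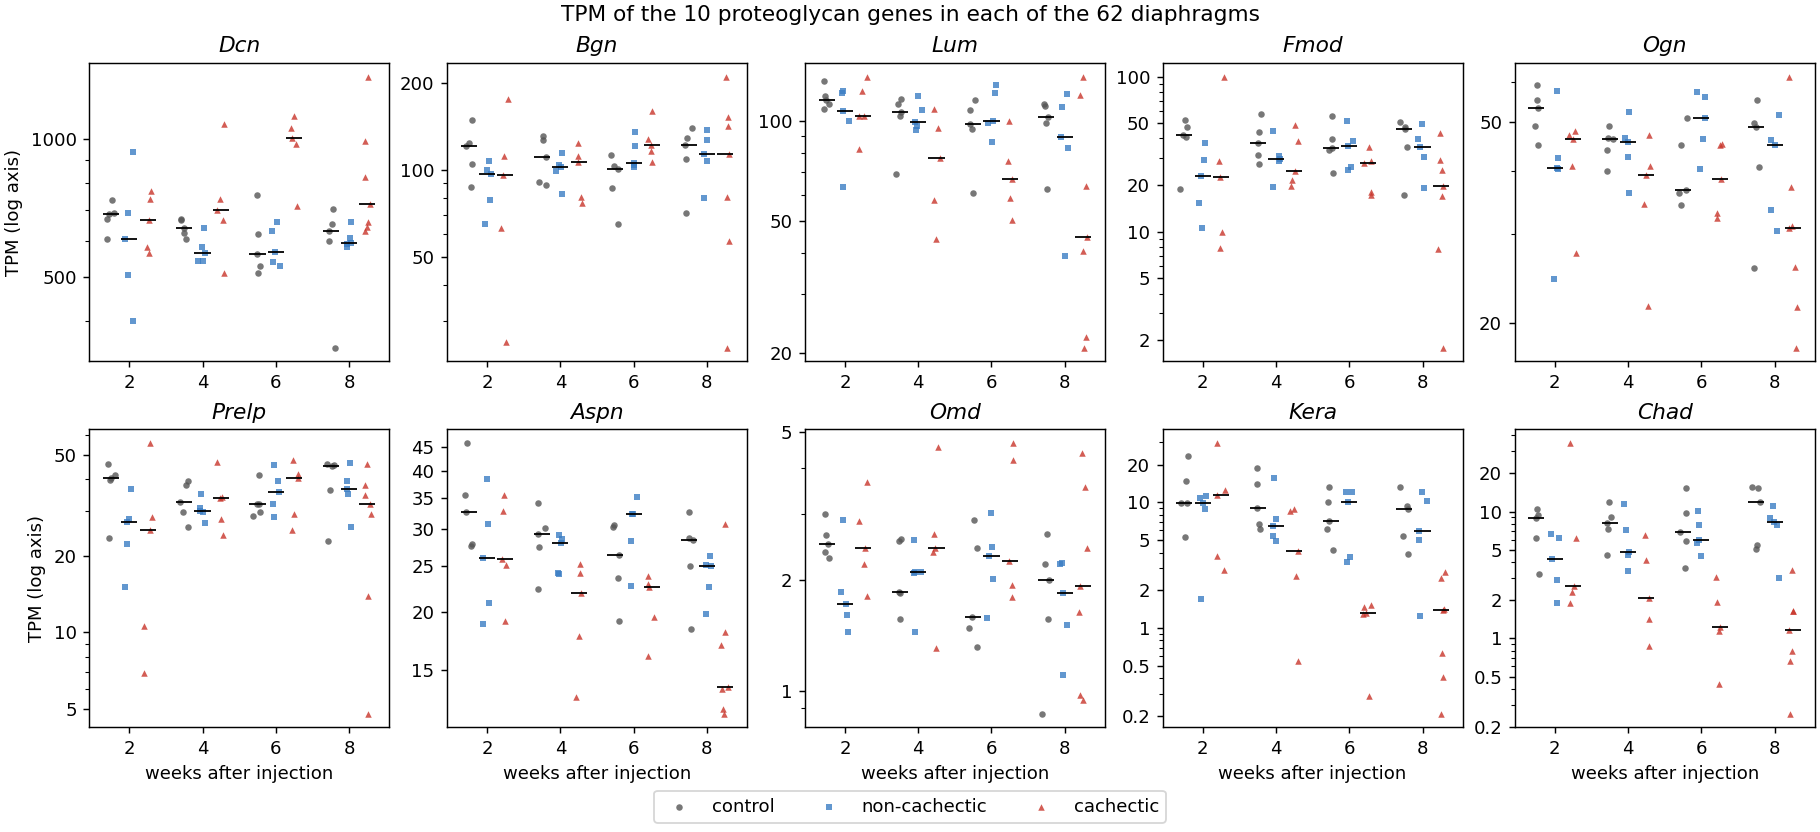
Each point is 1 mouse. The x axis is weeks after injection, the y axis is TPM on a log axis with its own range in each panel, and black lines are medians (5 mice per condition, 7 for CAC at 8 weeks). In CAC at 8 weeks Chad reached at most 3.49 TPM and Kera at most 2.81 TPM, below every Con mouse of that week.

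To ask whether SLRP expression differed as wasting advanced, CAC was compared with Con and with NCAC at each week by limma on log2(TPM + 1), with Benjamini-Hochberg adjustment over all 13578 genes, and a gene was called changed at an adjusted p under 0.05. These comparisons share the CAC mice, so their results are given side by side. At 6 weeks, Dcn rose and Kera and Chad fell relative to both groups. By 8 weeks Kera, Chad, Aspn and Lum were lower than in Con and Dcn higher, and Kera, Chad and Aspn were lower than in NCAC.

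At 6 weeks 1 of 10 members was called higher and 2 lower in CAC than in Con, against 5.62% and 1.17% of all genes tested. The counts relative to NCAC were also 1 higher and 2 lower, against 4.28% and 1.57%. At 8 weeks 1 member was higher (6.65% of all genes) and 4 were lower (8.12%) than in Con, and 0 were higher (6.75%) and 3 lower (6.19%) than in NCAC. When libraries were scaled without mitochondrially encoded genes, 0 members were higher and 7 lower than in Con at 8 weeks. Fmod, Ogn and Prelp were added and Dcn was lost, while 746 of all 13578 genes were higher and 2869 lower. After quantile normalization 0 members were higher and 6 lower, against 1479 and 1952 of all genes. Median-ratio scaling added Fmod and Prelp and lost Lum (adjusted p = 0.138) and Aspn (adjusted p = 0.0804) in limma, with 1587 genes higher and 1675 lower. The median log2 fold change of the 10 members in CAC versus Con was -0.18 at 6 weeks, when that of all genes was 0.17, and -0.67 at 8 weeks, when that of all genes was -0.09.

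**Figure D2:**
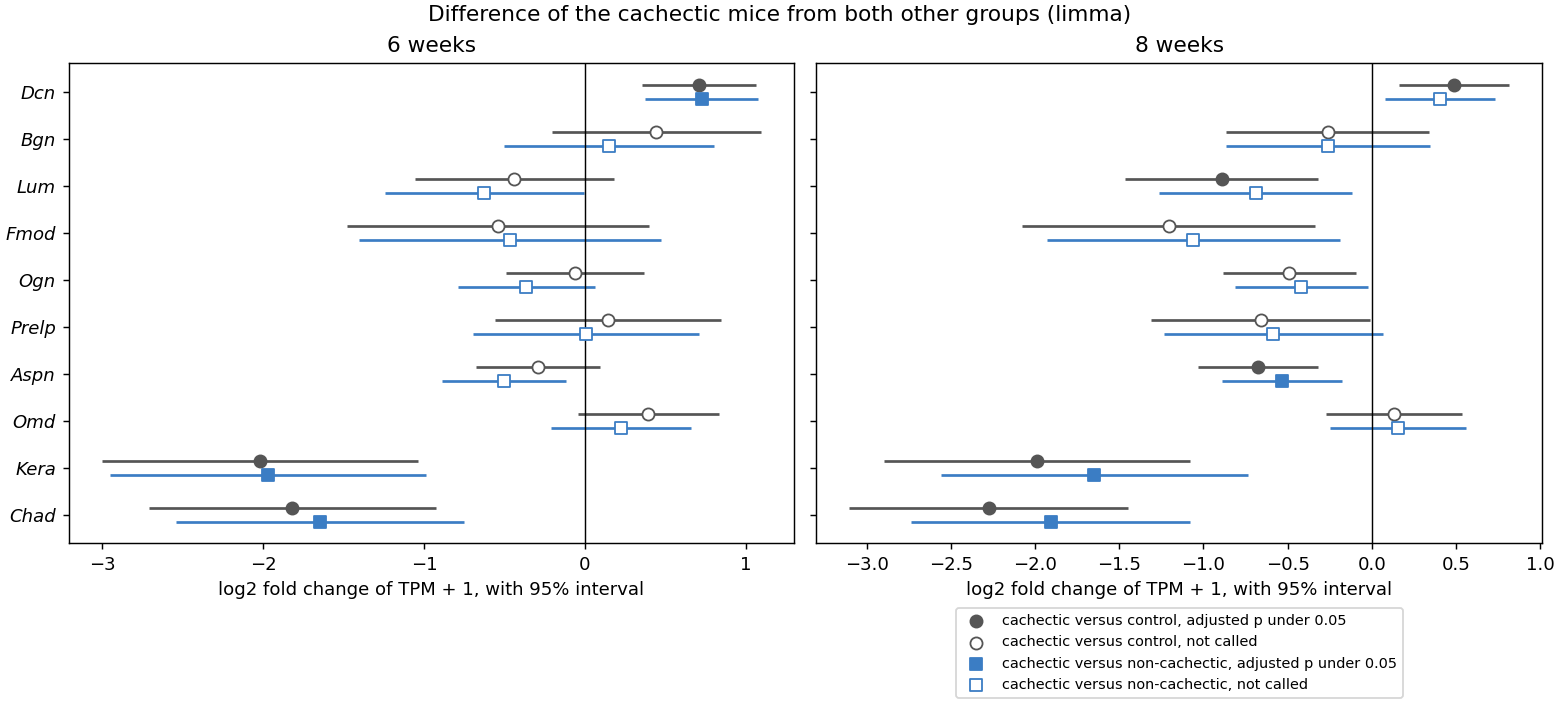
Log2 fold changes of TPM + 1 with their 95% intervals (limma, x axis) for the 10 members at 6 and 8 weeks, as CAC versus Con (grey circles) and CAC versus NCAC (blue squares). Filled symbols have an adjusted p under 0.05. Kera and Chad lie between -2.27 and -1.65, and Dcn lies right of 0.

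Dcn encodes decorin, the proteoglycan with a single dermatan or chondroitin sulfate chain that coats collagen fibrils. At 6 weeks Dcn was at 1123, 1058, 976, 1006 and 713 TPM in the 5 CAC mice, 559.8, 511, 756, 621 and 528 TPM in Con, and 566, 631, 659.7, 527 and 538 TPM in NCAC. Every CAC mouse was above every NCAC mouse, which 13.6% of all genes showed in this direction, and 4 of 5 were above every Con mouse. The log2 fold change was 0.71 (SE 0.18, adjusted p = 0.00707) versus Con and 0.73 (SE 0.18, adjusted p = 0.00619) versus NCAC in limma. After median-ratio scaling, which takes the shift of all genes out, it was 0.52 (adjusted p = 0.215) and 0.57 (adjusted p = 0.156) and no longer called. By Dunn's test, the rank test of the study, adjusted over all genes, neither was called (adjusted p = 0.0687 and 0.117). The study's methods give cutoffs on p and fold change and name no adjustment over all genes, so calls by this test here are stricter.

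At 8 weeks the 7 CAC mice had a lowest of 630.2, a median of 719.8 and a highest of 1366 TPM, Con had 351, 629, 652, 704 and 598 TPM, and NCAC had 608, 579.6, 593, 657 and 591 TPM. Con replicate 1 was the lowest and CAC replicate 2 the highest of these mice, and the groups overlapped. Expressed as a log2 fold change this was 0.49 (SE 0.16, adjusted p = 0.0317) versus Con and 0.41 (SE 0.16, adjusted p = 0.0936) versus NCAC. The Con comparison lost its call in limma without CAC replicate 2 (0.36, adjusted p = 0.122), CAC replicate 6 (0.44, adjusted p = 0.0702) or Con replicate 1 (0.31, adjusted p = 0.211), and under scaling alternatives, at 0.39 (adjusted p = 0.0634) without mitochondrially encoded genes and 0.32 (adjusted p = 0.103) after quantile normalization. Without the libraries that listed few genes it was 0.54 (adjusted p = 0.00549) versus Con and 0.46 (adjusted p = 0.0198) versus NCAC, both called.

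Bgn encodes biglycan, the closest relative of decorin, and was not called in the unweighted limma fit of all 62 mice and TPM as deposited. Versus Con at 6 weeks it was called higher with array quality weights (0.48, adjusted p = 0.00777) and in a fit of only the conditions compared (0.45, adjusted p = 0.0448). At 8 weeks it was at a lowest of 24.3, a median of 114 and a highest of 211 TPM in CAC and 71.2 to 140.4 TPM in Con. Its log2 fold change versus Con was 0.45 (SE 0.33, adjusted p = 0.477) at 6 weeks and -0.26 (SE 0.30, adjusted p = 0.626) at 8 weeks in limma, and without the libraries that listed few genes the latter was 0.05 (adjusted p = 0.877). The lowest of the 62 Bgn values, 24.3 TPM, was in CAC replicate 3 at 8 weeks, 1 of those libraries. The ratio of Dcn to Bgn within a mouse was 6.08 to 9.63 in CAC and 5.07 to 8.57 in Con at 6 weeks, so these ranges overlapped.

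Aspn encodes asporin, a relative of decorin with a stretch of aspartate residues and no glycosaminoglycan chain. At 8 weeks Aspn was at a lowest of 12.1, a median of 13.8 and a highest of 30.9 TPM in CAC, 18.4, 25.1, 32.6, 28.8 and 28.5 TPM in Con, and 22.6, 25.1, 19.8, 25.1 and 26.4 TPM in NCAC. All CAC mice except replicate 2 (30.9 TPM) were below every Con and every NCAC mouse. On the log2 scale, the difference was -0.68 (SE 0.18, adjusted p = 0.00531) versus Con and -0.53 (SE 0.18, adjusted p = 0.0352) versus NCAC in limma. Without the libraries that listed few genes it was -0.70 (adjusted p = 0.00156) and -0.56 (adjusted p = 0.0116). Versus NCAC the call was lost when any 1 of 8 mice was left out (adjusted p = 0.0549 to 0.093), and under median-ratio scaling neither comparison was called. Neither was called by Dunn's test (adjusted p = 0.128 versus Con and 0.418 versus NCAC). In a limma fit of only the conditions compared, neither was called as well (adjusted p = 0.144 and 0.254).

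Lum encodes lumican, a keratan sulfate proteoglycan that lies next to Dcn in the genome. At 8 weeks the CAC mice had a lowest of 20.8, a median of 44.8 and a highest of 136 TPM, Con had 62.3, 98.9, 103, 111 and 113 TPM, and NCAC had 83.2, 89.4, 39.3, 110.1 and 121 TPM. CAC replicates 6 and 1 held the lowest Lum values of the series, whereas CAC replicates 2 (136 TPM) and 3 (120.0 TPM) were above every Con mouse. limma put the log2 fold change at -0.89 (SE 0.29, adjusted p = 0.0258) versus Con and -0.69 (SE 0.29, adjusted p = 0.108) versus NCAC in limma. Replicate 3 was 1 of the libraries that listed few genes, and without those it was -1.09 (adjusted p = 0.00189) and -0.89 (adjusted p = 0.0114), both called. In limma the Con comparison was not called when any 1 of CAC replicates 1 and 6 or Con replicates 2, 3, 4 and 5 was left out (adjusted p = 0.0537 to 0.0977). The same held after median-ratio scaling (-0.73, adjusted p = 0.138) and with the replicate block (-0.60, adjusted p = 0.15), in which mice of a week with the same replicate number share a term. It also held by Dunn's test (adjusted p = 0.51) and in a limma fit of only the conditions compared (adjusted p = 0.373). At 6 weeks CAC had 50.4, 75.6, 100.1, 66.8 and 58.8 TPM and Con had 60.6, 94.8, 116, 108 and 97.9 TPM, a log2 fold change of -0.44 (SE 0.31, adjusted p = 0.454).

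Fmod encodes fibromodulin, a keratan sulfate proteoglycan of tendon that binds collagen near the same site as lumican. At 8 weeks it was at a lowest of 1.79, a median of 19.8 and a highest of 43.4 TPM in CAC, 17.3, 50.6, 47.6, 35.2 and 45.8 TPM in Con, and 35.4, 49.4, 19.2, 30.3 and 39.4 TPM in NCAC. The lowest Fmod value of the series was in CAC replicate 3, a library that listed few genes, and the groups overlapped. The log2 fold change was -1.21 (SE 0.43, adjusted p = 0.0505) versus Con and -1.06 (SE 0.43, adjusted p = 0.102) versus NCAC, neither of them called in limma, and without the libraries that listed few genes it was -0.78 (adjusted p = 0.0738) and -0.63 (adjusted p = 0.156). Under median-ratio scaling both were called (-1.10, adjusted p = 0.0141, and -0.98, adjusted p = 0.0319). Versus Con, Fmod stayed uncalled in 7 of 12 fits that left out 1 mouse and in 5 of 12 other alternatives, and was called in the rest. Versus NCAC it stayed uncalled in 11 of 12 and 9 of 12.

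Prelp encodes prolargin, which links collagen to heparan sulfate of basement membranes. Its log2 fold change versus Con was 0.14 (SE 0.35, adjusted p = 0.858) at 6 weeks and -0.66 (SE 0.32, adjusted p = 0.178) at 8 weeks, and the latter was -0.31 (adjusted p = 0.270) without the libraries that listed few genes. At 8 weeks it was called under each of the 3 other scalings, at -0.52 (adjusted p = 0.0440) after median-ratio scaling, -0.78 (adjusted p = 0.0325) without mitochondrially encoded genes and -0.59 (adjusted p = 0.0312) after quantile normalization. Prelp was at a lowest of 4.78, a median of 32.1 and a highest of 45.9 TPM in CAC at 8 weeks and 22.9 to 46.1 TPM in Con, and its lowest value of the series was again in CAC replicate 3.

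Kera encodes keratocan, a keratan sulfate proteoglycan known from the cornea and from tendon. At 6 weeks Kera was at 0.288, 1.46, 1.29, 1.53 and 1.33 TPM in CAC, 10.02, 7.08, 6.16, 13.2 and 4.22 TPM in Con, and 12.04, 10.2, 12.1, 3.71 and 3.38 TPM in NCAC. Every CAC mouse was below every mouse of both other groups, which 2.95% of all genes showed versus Con and 3.3% versus NCAC. On the log2 scale, the difference was -2.02 (SE 0.49, adjusted p = 0.00605) versus Con and -1.97 (SE 0.49, adjusted p = 0.00822) versus NCAC in limma, with a 95% interval of -3.01 to -1.04 versus Con.

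At 8 weeks Kera was at a lowest of 0.208, a median of 1.40 and a highest of 2.81 TPM in CAC, 3.92, 8.85, 13.2, 5.45 and 9.36 TPM in Con, and 5.07, 10.4, 1.24, 5.96 and 12.1 TPM in NCAC. All 7 CAC mice were below every Con mouse, against 3.82% of all genes in this direction, and NCAC replicate 3 lay within the CAC range. limma put the log2 fold change at -1.99 (SE 0.45, adjusted p = 0.00125) versus Con and -1.65 (SE 0.45, adjusted p = 0.00910) versus NCAC in limma. Without the libraries that listed few genes it was -2.01 (adjusted p = 0.000754) and -1.67 (adjusted p = 0.00490). In a limma fit of only the conditions compared, Kera versus NCAC was not called (adjusted p = 0.0633). By Dunn's test adjusted over all genes Kera was not called at either week (adjusted p = 0.0687 to 0.157), and Chad was called at 8 weeks alone. Unadjusted, Dunn's p versus Con at 8 weeks was 0.000167 for Chad, 0.00736 for Kera, 0.0214 for Aspn, 0.0616 for Dcn and 0.248 for Lum.

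Chad encodes chondroadherin, a leucine-rich protein without glycosaminoglycan chains that binds collagen and integrins and was first known from cartilage. At 6 weeks Chad was at 0.435, 1.92, 1.23, 3.06 and 1.14 TPM in CAC, 6.89, 9.74, 5.89, 15.5 and 3.60 TPM in Con, and 7.83, 5.93, 10.1, 4.42 and 5.64 TPM in NCAC, again with every CAC mouse below both other groups. Expressed as a log2 fold change this was -1.82 (SE 0.45, adjusted p = 0.00668) versus Con and -1.65 (SE 0.45, adjusted p = 0.0162) versus NCAC in limma, and the NCAC comparison was not called without CAC replicate 1 (-1.46, adjusted p = 0.0814) or NCAC replicate 3 (-1.51, adjusted p = 0.051).

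At 8 weeks Chad was at a lowest of 0.254, a median of 1.16 and a highest of 3.49 TPM in CAC, 5.47, 15.7, 11.99, 5.09 and 15.3 TPM in Con, and 8.91, 11.04, 2.98, 7.81 and 8.33 TPM in NCAC. Only NCAC replicate 3 of the other 10 mice lay within the CAC range, below CAC replicate 5 alone. The log2 fold change was -2.27 (SE 0.41, adjusted p = 6.52e-05) versus Con and -1.91 (SE 0.41, adjusted p = 0.000779) versus NCAC in limma, farthest from 0 of the 10 members in both comparisons, and -2.21 (adjusted p = 4.64e-05) and -1.84 (adjusted p = 0.000566) without the libraries that listed few genes.

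Kera and Chad are genes of tendon and cartilage, so markers of these tissues were read beside them. Of 7 tendon markers tested, limma called 0 at 6 weeks versus Con, and 1 lower without the libraries that listed few genes, when 1 was higher and 2 lower versus NCAC. In the fit without those libraries 582 of all 13578 genes were lower than in Con. Versus NCAC 2996 were higher and 704 lower. At 6 weeks every CAC mouse was nevertheless below every Con mouse for Tnmd (2.62 to 4.45 and 4.72 to 10.1 TPM), Col11a2 (1.45 to 1.95 and 2.93 to 4.54 TPM) and Cilp2 (0.143 to 0.316 and 0.359 to 1.36 TPM). Of all genes, 2.95% showed this. Scx, a transcription factor of tendon cells, went the other way. Every CAC mouse (5.83 to 12.2 TPM) was above every NCAC mouse (2.95 to 5.09 TPM), which 13.6% of all genes showed. Its Con range at 6 weeks (3.83 to 9.86 TPM) overlapped with CAC. Versus Con 3 markers were lower at 8 weeks, namely Tnmd (-1.05, adjusted p = 0.0186), Col11a2 (-1.001, adjusted p = 0.00395) and Cilp2 (-0.86, adjusted p = 0.00264). Cilp2 lay near the floor, at 0 to 0.340 TPM in CAC and 0.415 to 1.59 TPM in Con at 8 weeks. No CAC mouse of 4, 6 or 8 weeks reached 1 TPM of Cilp2, so it passed the filter on low values through other mice. Its values are therefore not separate support. At 8 weeks Scx was at 4.36 to 14.7 TPM in CAC and 5.43 to 10.7 TPM in Con (0.10, adjusted p = 0.856). Thbs4, a matrix protein of tendon, was at 20.6 to 143 and 28.2 to 78.3 TPM (0.08, adjusted p = 0.911).

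The whole tendon list summed to 84.9 to 175 TPM in CAC and 83.7 to 135 TPM in Con at 6 weeks, and to 34.5 to 219 and 70.1 to 141 TPM at 8 weeks. Ranges of the sum overlapped at both weeks, and most of the sum was Thbs4 (52.6 to 115 TPM in CAC and 34.6 to 70.9 TPM in Con at 6 weeks). The 8 cartilage markers in the table summed to at most 0.582 TPM in Con and 0.271 TPM in CAC at 8 weeks, and none passed the filter on low values. The part of the tendon markers in the Kera and Chad result was not tested.

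Omd and Ogn share a cluster with Aspn on chromosome 13. Omd encodes osteomodulin, known from bone, and was between 0.870 and 4.66 TPM in all 62 mice, with a log2 fold change of 0.40 (SE 0.22, adjusted p = 0.311) at 6 weeks and 0.13 (SE 0.20, adjusted p = 0.733) at 8 weeks versus Con. With array quality weights Omd was called higher at 6 weeks (0.56, adjusted p = 0.00530). Ogn encodes osteoglycin, which regulates collagen fibrils and was at a lowest of 17.8, a median of 30.8 and a highest of 61.4 TPM in CAC and 25.6 to 55.2 TPM in Con at 8 weeks. Its log2 fold change versus Con was -0.06 (SE 0.21, adjusted p = 0.904) at 6 weeks and -0.49 (SE 0.20, adjusted p = 0.0870) at 8 weeks, and it was not called in limma. Leaving out CAC replicate 2 (-0.66, adjusted p = 0.0108) or Con replicate 1 (-0.67, adjusted p = 0.0195) brought the call at 8 weeks, as did array quality weights (-0.68, adjusted p = 0.000847) and scaling without mitochondrially encoded genes (-0.59, adjusted p = 0.0230).

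Neighbours in a cluster were next set side by side. On chromosome 10, Dcn was higher while Lum and Kera were lower in CAC than in Con at 8 weeks, and Epyc, the next gene, had a median of 0.0555 TPM and was not tested. On chromosome 13, Aspn was lower and so was Ecm2 before it, an extracellular matrix protein with leucine-rich repeats, while Omd and Ogn were not called in the unweighted limma fit of all 62 mice and TPM as deposited. The log2 fold change of Ecm2 at 8 weeks was -0.78 (adjusted p = 0.000670) versus Con and -0.70 (adjusted p = 0.00263) versus NCAC in limma. On chromosome 1, neither Prelp nor Fmod was called in the limma fit of all 62 mice without rescaling, weights, a covariate or a replicate block. Both were called lower versus Con at 8 weeks under each of the 3 other scalings, and Fmod also in some limma fits without rescaling. Optc, next to Prelp, had a median of 0.0652 TPM.

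The ratio of Dcn to Lum within a mouse was chosen after these values were seen and is given without a test. At 6 weeks it was 22.3, 13.99, 9.75, 15.1 and 12.1 in CAC, 9.24, 5.39, 6.53, 5.77 and 5.39 in Con, and 5.65, 5.19, 5.13, 5.34 and 6.21 in NCAC. The CAC range lay wholly above the others. At 8 weeks the CAC ratios had a lowest of 5.35, a median of 16.1 and a highest of 47.6, and all except that of replicate 3 were above the Con range of 5.31 to 6.36, whereas NCAC spanned 4.88 to 15.1. At 2 weeks the medians of CAC, Con and NCAC were 6.397, 5.95 and 6.07.

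The composition of the SLRP transcripts was compared next. Of the summed TPM of the 10 members, Dcn held 60.1 to 67.6% in Con, 58.0 to 62.3% in NCAC and 70.4 to 79.7% in CAC at 6 weeks. The shares at 8 weeks were 57.7 to 64.0%, 58.2 to 72.9% and 69.1 to 83.2%. The sum itself was 579 to 1100.1 TPM in Con and 768 to 1881 TPM in CAC at 8 weeks, and these ranges overlapped.

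SLRPs act on collagen fibrils, so the collagen genes were read beside them. Of 11 fibrillar and fibril-associated collagen genes tested, 9 were lower in CAC than in Con at 8 weeks (0 higher, median log2 fold change -1.59), and 9 without the libraries that listed few genes. Examples were Col6a2 (-2.14, adjusted p = 7.39e-05), Col1a1 (-2.12, adjusted p = 0.000672) and Col6a3 (-1.93, adjusted p = 2.52e-05). At 6 weeks 0 were called by limma versus Con and 4 were lower versus NCAC, against 2 and 8 lower without those libraries. Of all 13578 genes, 582 and 704 were lower in the fit without them. The TPM of Dcn divided by that of Col1a1, Col1a2 and Col3a1 together was 5.77 to 13.5 in CAC, 3.00 to 5.02 in Con and 1.80 to 3.03 in NCAC at 6 weeks. At 8 weeks it was 6.95 to 29.0 in CAC and 2.11 to 2.85 in Con, and 1 NCAC mouse of a range of 1.62 to 7.48 reached into the CAC range. The ratio was also chosen after the values were seen.

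**Figure D3:**
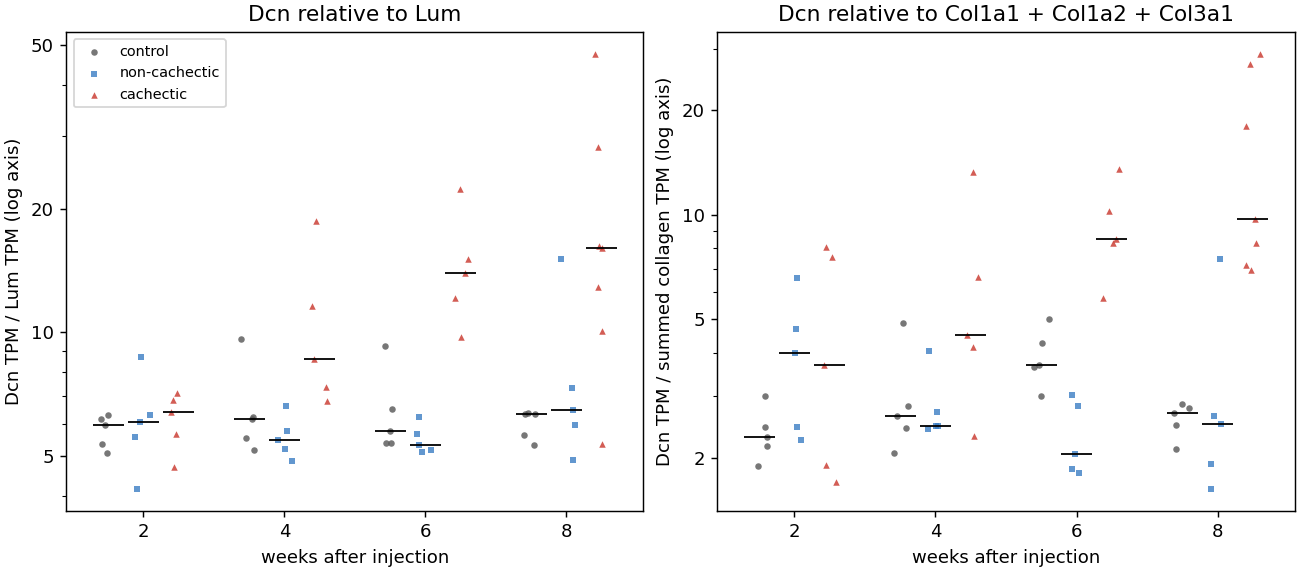
Ratio of Dcn to Lum TPM (left) and of Dcn TPM to the summed TPM of Col1a1, Col1a2 and Col3a1 (right) in each mouse, on log axes, against weeks after injection, with black lines at the medians. At 6 weeks the 5 CAC mice lie above all Con and NCAC mice in both panels.

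Genes of SLRP synthesis and turnover were counted over whole lists, with log2 fold changes by limma in parentheses. Versus Con at 8 weeks, 1 of 20 tested genes of chondroitin and dermatan sulfate synthesis was lower, the initiating xylosyltransferase Xylt1 (-0.44, adjusted p = 0.0214), while the most abundant, B3gat3, was at -0.40 (adjusted p = 0.422). Of 5 keratan sulfate genes 0 were called in limma, B4galt1 being at 0.22 (adjusted p = 0.647). Of 12 processing enzymes 2 were higher, Mmp3 (1.89, adjusted p = 3e-06) and Adamts4 (0.48, adjusted p = 0.0231), proteases that cleave proteoglycans, and 1 was lower, the serine protease Htra1 (-0.89, adjusted p = 0.000701).

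Among 11 ligands of these proteoglycans, C1qa of complement was higher (0.93, adjusted p = 0.0141), and the growth factors Tgfb2 (-1.02, adjusted p = 0.00271) and Bmp2 (-0.43, adjusted p = 0.0206) were lower. Of 12 receptors 1 was lower, the vascular receptor Kdr (-0.98, adjusted p = 0.00403), and Itgb1 was at -0.17 (adjusted p = 0.458). Of 11 matrix genes that respond to TGF-beta 1 was lower, Postn (-1.06, adjusted p = 0.0209), and Fn1 was at -0.29 (adjusted p = 0.774). Of 4 other leucine-rich proteoglycan genes tested 1 was lower, Ecm2, and Podn was at -0.45 (adjusted p = 0.517). Without the libraries that listed few genes, limma called 3 lower in the first of these lists of synthesis genes, 1 higher for keratan sulfate, 3 higher and 1 lower among the enzymes, 2 higher and 3 lower among ligands, and 4 higher and 1 lower among receptors. In that fit 3015 of all 13578 genes were higher and 1682 lower, so counts of this size in short lists are not read as results about the lists.

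Markers of other cells were read in the same way. Of 12 fibroblast and fibro-adipogenic progenitor markers, 1 was higher and 2 were lower in CAC than in Con at 8 weeks, namely Ly6a (1.15, adjusted p = 0.000171), Col15a1 (-2.49, adjusted p = 7.4e-06) and Thy1 (-1.02, adjusted p = 0.00356), and their sum was 372 to 878 TPM in CAC and 437 to 716 TPM in Con. At 6 weeks 1 was higher and 0 lower, and the sum was 482 to 772 and 428 to 592 TPM. Of 7 macrophage markers 3 were higher at each of these weeks. Liver, mesothelium, adipocyte, endothelium and smooth muscle lists had 0 called versus Con at 8 weeks in limma. Without the libraries that listed few genes, fibroblast markers had 1 higher and 3 lower, tendon markers 0 higher and 3 lower, endothelial markers 1 higher, and muscle fiber markers 4 higher and 1 lower. Of all 13578 genes, 3015 were higher and 1682 lower than in Con at 8 weeks in that fit. The part of these cells in the Dcn, Lum or Aspn differences was not tested.

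At 2 and 4 weeks, and between NCAC and Con, the unweighted limma fit of all 62 mice and TPM as deposited called no member. With array quality weights 2 were called lower in CAC than Con at 4 weeks and 3 lower in NCAC than Con at 2 weeks, and without CAC replicate 1 at 2 weeks 4 were called versus Con. Calls over all genes were not counted in these fits, so these member counts have no background share beside them. CAC and Con differed at 2 weeks in 29.3% of all genes and 0 of 10 members by limma (1 at an unadjusted p under 0.05), where 0 genes and 0 members were called without the libraries that listed few genes, and at 4 weeks in 0.0221% of genes and 0 members (3 unadjusted). CAC versus NCAC gave 0 members at 2 weeks (0% of genes, 0 members unadjusted) and at 4 weeks (0.0295%, 2 unadjusted). NCAC versus Con gave 0 members at every week, adjusted or not, against 4.43% of genes at 2 weeks and 0% at 4, 6 and 8 weeks. Dunn's test called 0 members in each of these comparisons.

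At 4 weeks Chad was at 4.15, 0.869, 1.43, 2.09 and 6.56 TPM in CAC and 4.56, 11.9, 9.08, 7.23 and 8.15 TPM in Con, a log2 fold change of -1.33 (SE 0.45, adjusted p = 0.457) in limma. Kera was at 8.85, 0.547, 4.09, 2.62 and 8.55 TPM in CAC and 9.03, 18.8, 13.98, 6.72 and 6.11 TPM in Con at that week (-1.19, SE 0.49, adjusted p = 0.717). The CAC values reached lower than Con and the groups overlapped. At 2 weeks CAC replicate 1 had the highest Chad (34.7 TPM), Kera (29.7 TPM) and Fmod (99.9 TPM) of the series, with Tnmd at 17.8 TPM.

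The difference between weeks was tested as well. Within CAC, 8 versus 4 weeks, 0 members were called by limma (1 unadjusted, Kera) against 2.07% of genes, and the change was -1.17 (SE 0.45, adjusted p = 0.185) for Kera and -0.68 (SE 0.41, adjusted p = 0.478) for Chad. Within NCAC and within Con, 0 members and 0% of genes were called. The CAC versus Con and CAC versus NCAC differences were not shown to change from 4 or 6 to 8 weeks, with 0 members called, 0 unadjusted and 0% of genes called. For Chad the change of the CAC versus Con difference from 4 to 8 weeks was -0.95 (SE 0.61, adjusted p = 0.764) and for Dcn it was 0.33 (SE 0.24, adjusted p = 0.779).

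Members fell into groups by how they varied over the 62 mice, which share conditions and library quality, so that these correlations are descriptions. Kera and Chad went together (Pearson's r = 0.86 on log2(TPM + 1), 0.79 for deviations from condition means). Lum, Ogn and Aspn formed another group, with r = 0.83 for Lum and Aspn, 0.84 for Ogn and Aspn and 0.73 for Lum and Ogn. Kera was as near to Lum (0.73) and to Aspn (0.73), so these groups were not sharply apart. Bgn and Prelp had r = 0.90, which was 0.78 over the 58 mice without the libraries that listed few genes. Fmod was nearest to Prelp over all mice (0.85, against 0.77 with Chad and 0.76 with Bgn), and nearest to Chad over those 58 (0.83, against 0.78 with Kera, 0.74 with Prelp and 0.58 with Bgn).

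Dcn was closest to Omd, with r = 0.60 over all mice, 0.61 about condition means and 0.66 without the libraries that listed few genes. Its r was -0.08 with Lum, -0.29 with Kera and -0.33 with Chad over all mice, and 0.34, 0.25 and 0.20 about condition means, where it was highest with Ogn (0.70). The negative values with Kera and Chad were not found within conditions.

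**Figure D4:**
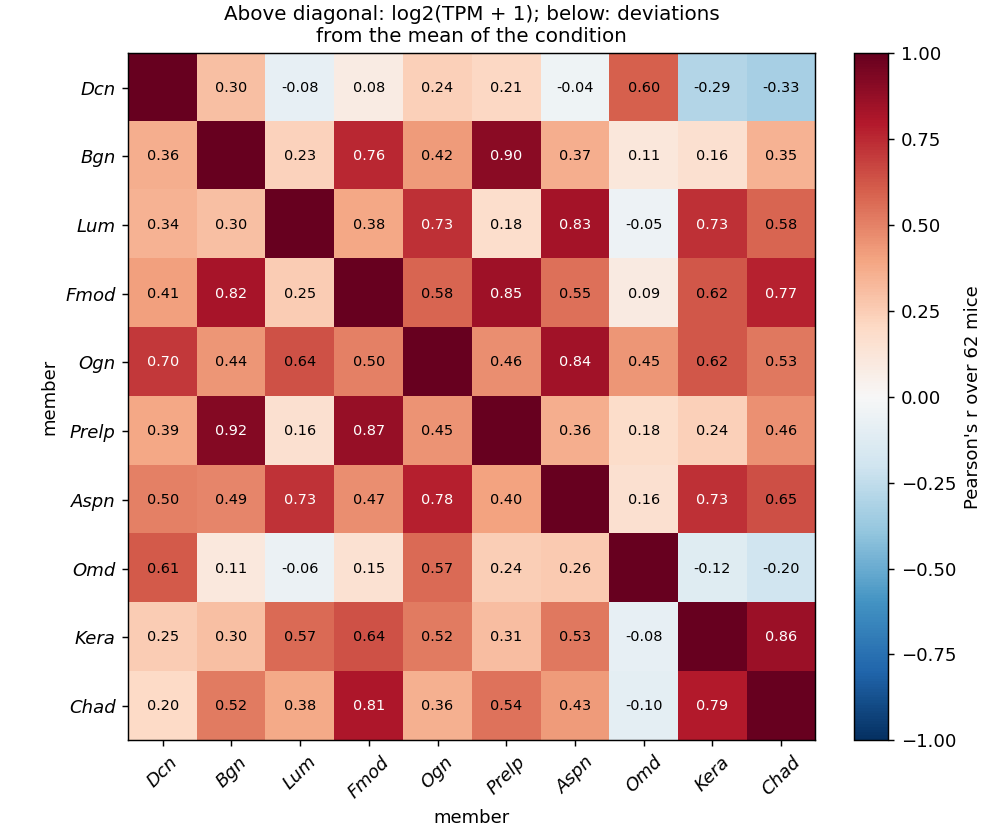
Pearson's r between members over the 62 mice, of log2(TPM + 1) above the diagonal and of deviations from the condition means below it, on a color scale from -1 (blue) to 1 (red). Kera and Chad (0.86 above the diagonal) and Bgn and Prelp (0.90) are among the darkest pairs, and Dcn is pale or blue with Lum, Kera and Chad above the diagonal.

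Outside the members, the genes most like the mean of the 10 standardised profiles were collagens, with Col5a2 (r = 0.897 over 62 mice), Col12a1 (0.895), Col1a2 (0.878) and Col14a1 (0.873) in the first 4 places, followed by Serpinf1, Lpar1, Fstl1, Dpysl3, Antxr1 and Fam114a1. By single member, Kera was most like Tnmd (0.916), Chad like Cilp2 (0.886) and Fmod like Comp (0.919), all 3 of them on the tendon list. Lum was most like Angptl1 (0.877), Aspn like Fap (0.845), Ogn like Aspn, Bgn like Prelp and Prelp like Parva (0.945). Dcn was most like Rarres2 (0.839), and Omd was least matched, with Eif2a (0.629) first.

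In the 4 libraries that listed few genes, members were set against their base composition, a description chosen after the values were seen. Each was compared with the median of the mice of its condition outside these 4 libraries. Bgn, Fmod, Prelp and Chad, whose longest coding transcripts are 52.5% to 56.7% G and C, were below that median in 4 of 4 libraries. Their differences were -3.06 to -0.53 on the log2(TPM + 1) scale. Dcn, Lum, Ogn, Aspn, Omd and Kera, at 34.3% to 42.8% G and C, differed by -1.53 to 1.47. The genes tested as a whole were set beside them in 4 equal bins by G and C content. The richest bin had median differences of -1.60 to -0.82 and the poorest of -0.75 to -0.47 in these libraries. Both bins were thus below 0 in every library, whereas the members of lower content differed in both directions. Chad fell less than the median of the richest bin in each library. In CAC replicate 3 at 8 weeks Fmod was at 1.79 TPM and Bgn at 24.3 TPM against medians of 22.4 and 128 TPM in the other 6 mice, while Lum was at 120.0 TPM against 42.6 TPM.

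**Figure D5:**
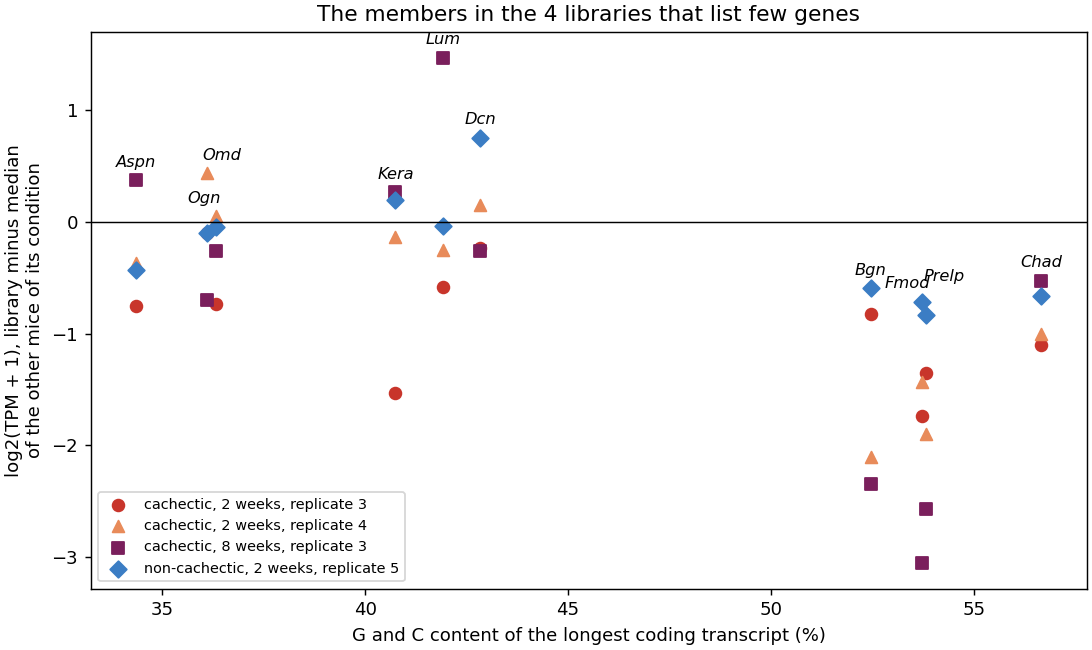
The y axis is the difference of log2(TPM + 1) between each of the 4 libraries that listed few genes and a median. That median is over the mice of its condition outside these 4 libraries. The x axis is the G and C content of the longest coding transcript in percent, with 1 point per member and library. The 4 members above 50% G and C are below 0 in every library, whereas the other 6 lie on both sides of 0.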

How the data were processed

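RNA from 62 diaphragms was sequenced by the authors on an Illumina NovaSeq, who mapped the reads to mm10 (GRCm38) with CLC Genomics Workbench and deposited 1 table of TPM values. The labels name a stranded kit and the study's methods an unstranded one, so how strand was used is uncertain, and the extraction label also refers to LLC cells. Read depth is unknown, since TPM keeps none, and no interval for counting error is given. Groups came from the treatment and time labels.

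TPM was taken as log2(TPM + 1), the genes kept reached 1 TPM in 5 mice or more, and limma (3.58.1, R 4.3.3, with a mean-variance trend) was fitted over all 12 conditions with Benjamini-Hochberg adjustment over 13578 genes, after tests on simulated data. Fold changes on this scale understate those of low genes such as Kera, Chad and Omd. Alternatives were 3 scalings, a pseudocount of 0.1, no filter, array quality weights, Dunn's test, a replicate block, only the conditions compared, liver genes as a covariate, and fits without libraries or single mice. Members and lists were chosen with earlier results of these data known, as was the rule for named genes: all members, up to 3 changed genes of each pathway list with the largest fold change at 8 weeks, or, where fewer than 2 changed, also the most abundant, neighbours in a cluster, and the most correlated genes. Tendon, cartilage and fibroblast markers named beyond these were chosen after their values were seen. Bone markers summed to at most 1.60 TPM at 6 and 8 weeks and none was tested.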

Additional observations from a re-analysis of the deposited data

Results flagged for a closer look

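In each of 120 sets of mice (10 members in 12 conditions) the highest or lowest mouse was compared with the rest by Dixon's ratio at its 95% critical value, which chance passes in about 1 of 20 sets. It was passed 10 times, against 6 by that rate, and 1 of the 10 was in a library that listed few genes.

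Con replicate 1 at 8 weeks was lowest for Dcn (351 TPM, others 598 to 704) and for Lum (62.3 TPM, others 98.9 to 113). Con replicate 1 at 2 weeks was lowest for Fmod (18.8 TPM, others 40.5 to 52.2) and for Prelp (23.4 TPM, others 39.6 to 45.8). Con replicate 5 at 4 weeks was lowest for Lum (69.4 TPM, others 103.7 to 117). In CAC, replicate 2 at 8 weeks was highest for Aspn (30.9 TPM, others 12.1 to 18.1), replicate 1 at 6 weeks was lowest for Kera (0.288 TPM, others 1.29 to 1.53), and replicate 3 at 2 weeks, with few genes listed, was lowest for Ogn (27.4 TPM, others 40.8 to 47.9). In NCAC, replicate 2 at 2 weeks was lowest for Kera (1.72 TPM, others 8.90 to 11.2) and replicate 3 at 8 weeks was lowest for Chad (2.98 TPM, others 7.81 to 11.04).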

How the results depend on the processing

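Mice sharing a week and replicate number correlated at -0.63 to 0.39 in their deviations from condition means, and those of replicate 3 at 8 weeks at 0.25 to 0.39. Mice of unlike number were not set beside them, so whether the numbers pair samples was not settled. CAC replicates 6 and 7 at 8 weeks have no partner. With the replicate block 4 members were called versus Con and 2 versus NCAC at 8 weeks. Beside the Lum call named with its values, Dcn versus Con (0.46, adjusted p = 0.0652) and Aspn versus NCAC (-0.45, adjusted p = 0.122) lost their calls, Fmod versus Con (-1.37, adjusted p = 0.0439) gained one, and 3 members stayed the count versus each group at 6 weeks.

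Counts of members changed moved under some alternatives. Among these, calls over all genes were counted only for the 3 scalings and the fit without the libraries that listed few genes. The other member counts therefore have no share of all genes beside them. Array quality weights gave 2 members in CAC versus Con at 4 weeks and 5 at 6 weeks, 5 versus NCAC at 6 weeks and 6 at 8 weeks, 3 in NCAC versus Con at 2 weeks, 3 within CAC from 4 to 8 weeks, and 1 for the change of the CAC versus Con difference from 4 to 8 weeks. Dunn's test gave 0 at 6 weeks and 1 at 8 weeks in both CAC comparisons, and was not run for the 4 changes of a difference. A fit of only the conditions compared gave 2 versus Con at 8 weeks, and 5 at 6 weeks and 1 at 8 weeks versus NCAC. Scaling without mitochondrially encoded genes gave 1 versus Con at 2 weeks and 7 at 8 weeks, and the fit without the libraries that listed few genes gave 5 versus NCAC at 8 weeks. Leaving out 1 mouse gave 0 to 4 members versus Con at 2 weeks (4 without CAC replicate 1, and 1 without CAC replicate 2 or 5 or Con replicate 1), 3 at 6 weeks and 3 to 6 at 8 weeks (3 without CAC replicate 6). Versus NCAC it gave 2 to 3 at 6 weeks and 2 to 5 at 8 weeks (5 without CAC replicate 2 or 3), and within CAC from 4 to 8 weeks 0 to 1 (1 without CAC replicate 2 of 4 weeks). The remaining counts were 0 in every fit that left out 1 mouse. The causes of these moves were not tested.

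Fold changes that turned sign were all uncalled. With median-ratio scaling, scaling without mitochondrially encoded genes and quantile normalization, Prelp versus Con at 6 weeks was -0.046, -0.023 and -0.044, Bgn versus NCAC at 6 weeks -0.0038, -0.0061 and -0.011, and Prelp versus NCAC at 6 weeks -0.14, -0.15 and -0.15, and with liver genes as a covariate the last was -0.0053. Array quality weights turned Ogn versus Con at 6 weeks (0.033), Bgn at 8 weeks versus Con (0.049) and NCAC (0.17), and Omd at 8 weeks versus Con (-0.12) and NCAC (-0.0089). The fit without the libraries that listed few genes turned Bgn at 8 weeks versus Con (0.054) and NCAC (0.056). Single mice left out turned Prelp versus NCAC at 6 weeks (negative without CAC replicate 1, 2 or 3 or NCAC replicate 4 or 5, range -0.093 to 0.13), Ogn versus Con at 6 weeks (0.023 without Con replicate 3, lowest -0.12), Bgn at 8 weeks without CAC replicate 3 (0.054 versus Con, where the range was -0.46 to 0.054, and 0.056 versus NCAC, where it was -0.46 to 0.056), and Omd versus Con at 8 weeks (-0.0046 without CAC replicate 2 and -0.013 without Con replicate 1, range -0.013 to 0.24).

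Over all genes, CAC versus Con at 8 weeks had 903 higher and 1102 lower, against 1587 and 1675 with median-ratio scaling, 746 and 2869 without mitochondrially encoded genes, 1479 and 1952 with quantile normalization, and 3015 and 1682 without the libraries that listed few genes. At 6 weeks it had 763 and 159, against 471 and 540, 382 and 455, 530 and 729, and 3651 and 582 in that order. At 2 weeks it had 192 and 3781, against 1166 and 1209, 448 and 3757, 1549 and 627, and 0 and 0. Versus NCAC the counts were 581 and 213 at 6 weeks, against 469 and 572, 341 and 562, 512 and 743, and 2996 and 704, and 917 and 840 at 8 weeks, against 1394 and 1538, 721 and 2375, 1365 and 1663, and 3144 and 1381. Depth is unknown, and 5 to 7 mice per condition limited the precision.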
